A study of Mus musculus with 8 samples.

Results

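Integrins are cell surface receptors, each made of an alpha and a beta subunit, that hold cells to the extracellular matrix. The genes described here encode 10 subunits that bind matrix in the arterial wall: the alpha subunits Itga1, Itga5, Itga7, Itga8, Itga9, Itga11 and Itgav and the beta subunits Itgb1, Itgb3 and Itgb5. They were chosen by gene symbol, and each was read from its brightest transcript cluster, the unit in which the array summarises the probes of a gene, among clusters annotated with a single gene. This left 9 of the 10 genes, with 1 cluster each, out of 30604 single-symbol clusters and 65956 clusters in all. The cluster of Itga1, the alpha subunit of a collagen and laminin receptor, also carries the symbol of another gene, so Itga1 is not analysed here.

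Ascending aortas came from males aged 10 weeks that were either Fbn1mgR/mgR (4 arrays, numbered mgR611 to mgR614) or wild-type (4 arrays, WT675, WT676, WT742 and WT744), all bred from Fbn1mgR/+ parents on C57BL/6J. The tissue was snap-frozen, and the labels name no treatment. Fbn1 encodes fibrillin-1, the microfibril protein that scaffolds elastic fibres, and the hypomorphic mgR allele is a mouse model of Marfan syndrome with aneurysm. Whole-transcriptome Clariom D arrays gave 1 log2 signal per cluster, with array medians of 3.95 to 4.07. The labels name neither separate animals nor pools. The p-values weigh the difference between genotype means against the spread of these 8 samples within genotypes, which may be technical in part. How far they extend to other animals is uncertain. Fbn1 itself is not analysed here. A cluster value does not separate the splice forms of a gene.

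In the vessel wall, beta1 (Itgb1) partners with alpha1, alpha5, alpha7, alpha8, alpha9, alpha11 and alphav, whereas beta3 and beta5 partner with alphav. The alpha5, alpha8 and alphav receptors recognise the tripeptide RGD of fibronectin and other ligands, including an RGD site in fibrillin-1; alpha7 binds laminin, alpha11 binds fibrillar collagen, and alpha9 binds tenascin-C and SVEP1. Inside the cell, talin and kindlin activate the beta subunit and link it to actin, and alphav integrins also release active TGF-beta from its latent complex.

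No matrix-binding integrin passed the test between genotypes. With an adjusted p threshold of 0.05 (limma), 0 of the 9 genes were called higher in Fbn1mgR/mgR and 0 were called lower, against 2.1% of the 32957 clusters tested, that is 1.54% called higher and 0.558% called lower. Before adjustment, 1 was higher (Itga5) and 1 was lower (Itga8) with a p under 0.05, or 2 of 9 against 14.2% of all tested clusters. Counts called before adjustment further on use this unadjusted p under 0.05, and each stands against the same 14.2%. Counts of list genes called after adjustment stand against the 1.54% higher and 0.558% lower. The largest differences pointed in opposite directions: Itga5 was 2.93-fold higher on average with a wide interval, and Itga8 was 0.485-fold the wild-type level. The median difference of the 9 genes was 0.035 on the log2 scale, where that of all tested clusters was -0.017. In 2 of the 9, Itga8 and Itgav, the genotypes did not overlap, against 8.92% of all tested clusters.

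**Figure D1:**
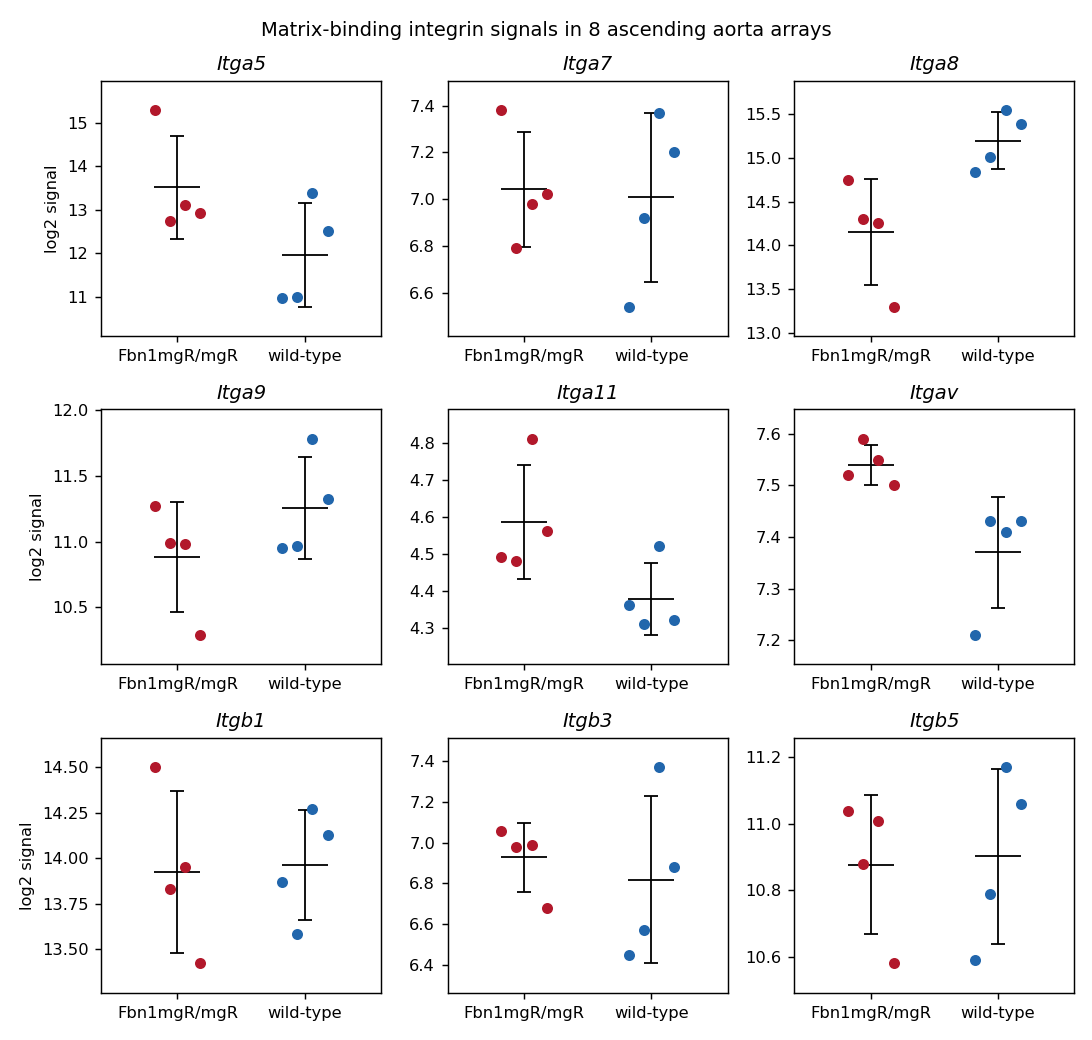
Log2 signal of each of the 9 integrin genes (y axis, own scale per panel) in Fbn1mgR/mgR (red) and wild-type arrays (blue), 4 arrays each, drawn within a genotype in the order of their numbers; black bars are the mean and SD. Only Itga8 (13.30 to 14.74 in Fbn1mgR/mgR against 14.84 to 15.54 in wild-type) and Itgav (7.50 to 7.59 in Fbn1mgR/mgR against 7.21 to 7.43 in wild-type) separate the genotypes.

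The DNA upstream of Itga8 and Itga5 is shown because these genes had the largest differences in each direction. Both stretches lie on the minus strand of GRCm38.p6 in the RefSeq promoter table and end where the annotated gene begins, at chr2:12301986-12302194 for Itga8 and chr15:103366792-103367041 for Itga5. The window of Itga8 was set on a start inside the annotated gene, so 209 of its bases lie before the gene, against 250 for Itga5. Capitals mark matches to any of 5 motifs searched on both strands, the CArG box bound by serum response factor, the SP1 motif GGGCGG, the SMAD motif CAGACA, the AP-1 motif TGANTCA and the TATA motif TATAAA.
Itga8: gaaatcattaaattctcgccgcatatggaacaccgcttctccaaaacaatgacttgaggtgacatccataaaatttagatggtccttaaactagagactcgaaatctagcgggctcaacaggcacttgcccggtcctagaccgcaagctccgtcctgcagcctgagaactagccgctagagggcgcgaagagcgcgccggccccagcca
Itga5: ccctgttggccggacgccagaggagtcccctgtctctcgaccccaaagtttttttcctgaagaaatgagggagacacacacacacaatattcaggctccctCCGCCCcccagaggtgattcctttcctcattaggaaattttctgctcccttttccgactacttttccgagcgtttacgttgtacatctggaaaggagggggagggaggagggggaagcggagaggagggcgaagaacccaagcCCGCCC
The capitals in Itga5 are 2 SP1 matches on the opposite strand. The SP1 motif occurred in 35.7% of 32851 promoter windows of 300 bases, so such a match is common. No match to the 5 motifs was found in the whole window of Itga8. The CArG box occurred in 1.63%, the SMAD motif in 21.0%, the AP-1 motif in 7.81% and the TATA motif in 13.6% of all windows. Windows were given for 8 of the 10 genes, and none of the 8 held a CArG box; these are matches of letters and were not tested for binding.

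Itga8 encodes the alpha subunit of the RGD receptor of smooth muscle and mesenchymal cells, whose best known ligand is nephronectin. Its signals were 14.74, 14.30, 14.26 and 13.30 in mutant arrays mgR611 to mgR614, in order of number, against 14.84, 15.01, 15.54 and 15.39 in wild-type arrays WT675, WT676, WT742 and WT744 (log2). Every mutant array lay below every wild-type array, although mgR611 and WT675 differed by little, and mgR614 lay furthest down. The means were 14.15 ± 0.61 in Fbn1mgR/mgR and 15.20 ± 0.33 in wild-type (SD, n = 4 each). The difference was -1.05 (SE 0.285, 95% interval -1.69 to -0.40, limma adjusted p = 0.114). A cluster differed by at least as much downwards in 0.728% of all those tested. Without mgR614 the difference was -0.76 (limma adjusted p = 0.139), and over the 22 alternatives the adjusted p ran from 0.0542 to 0.464. Contractile smooth muscle markers were read beside Itga8. Of 12 such genes tested, 0 passed as higher and 0 as lower (limma), with 1 higher and 3 lower before adjustment and a median difference of -0.46. Their mean signal ran from 11.31 to 12.23 in Fbn1mgR/mgR and from 11.92 to 12.62 in wild-type arrays, and it was lowest in mgR614. With that mean as a covariate, an alternative chosen after the data were seen, the Itga8 difference was -0.54 (limma adjusted p = 0.0905). In bulk tissue, fewer smooth muscle cells and less Itga8 RNA per cell cannot be told apart.

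Itga5, the alpha subunit of the classical fibronectin receptor, was the most variable integrin. Its signals were 15.29, 12.75, 13.10 and 12.92 in Fbn1mgR/mgR arrays mgR611 to mgR614, against 10.96, 10.99, 13.38 and 12.52 in wild-type arrays WT675, WT676, WT742 and WT744 (log2). The mutant array mgR611 stood above all others, WT675 and WT676 stood below all others, and WT742 lay above 3 of the 4 mutant arrays, so the genotypes overlapped. Means were 13.52 ± 1.19 in Fbn1mgR/mgR and 11.96 ± 1.19 in wild-type (SD, n = 4 each). The difference was 1.55 (SE 0.679, 95% interval 0.03 to 3.08, limma adjusted p = 0.340). Leaving out mgR611 brought it to 0.96 (limma adjusted p = 0.509). With the mean of 10 striated muscle markers as a covariate it was 0.34 (0.948), with the mean of the 9 of them other than Tcap, an alternative also chosen after the data were seen, 1.46 (0.393), and with the contractile marker mean 2.55 (0.0769). A spread within Fbn1mgR/mgR at least as wide as that of Itga5 occurred in 0.479% of tested clusters, and within wild-type in 0.631%.

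Itgav, the alpha subunit shared by the vitronectin-type receptors, had the smallest spread of the 9 genes among Fbn1mgR/mgR arrays. It read 7.52, 7.59, 7.55 and 7.50 in mgR611 to mgR614, against 7.21, 7.43, 7.41 and 7.43 in WT675, WT676, WT742 and WT744 (log2). All mutant arrays were higher than all wild-type arrays, but the gap between the nearest arrays was small and WT675 lay apart from the other wild-type arrays. The difference was 0.17 (95% interval -0.08 to 0.42, limma adjusted p = 0.574), or 1.13-fold with an interval of 0.945 to 1.34.

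The tenascin-C and SVEP1 receptor subunit Itga9 read 11.27, 10.99, 10.98 and 10.29 in mgR611 to mgR614, against 10.95, 10.97, 11.78 and 11.32 in WT675, WT676, WT742 and WT744 (log2). The genotypes overlapped, with mgR614 lowest of all and WT742 highest of all. The difference was -0.37 (95% interval -0.94 to 0.19, limma adjusted p = 0.583), or -0.17 without mgR614 and -0.20 without WT742, and with the contractile marker mean as a covariate it was 0.05 (limma adjusted p = 0.924). Itga7, the laminin receptor subunit of muscle cells, ran from 6.79 to 7.38 in Fbn1mgR/mgR and from 6.54 to 7.37 in wild-type arrays. Its difference was 0.03 (95% interval -0.42 to 0.49, or 0.749 to 1.40 as a fold change, limma adjusted p = 0.970). The sign of this value turned to -0.08 without mgR611 and to -0.12 without WT675.

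Itga11, the fibrillar collagen receptor subunit of fibroblasts, lay near the dim range. Its signals were 4.49, 4.48, 4.81 and 4.56 in mgR611 to mgR614, against 4.36, 4.31, 4.52 and 4.32 in WT675, WT676, WT742 and WT744 (log2), where 95% of 1228 olfactory receptor clusters, a guide to signals without transcript, read 4.11 or less. Only WT742 reached into the mutant range. The difference was 0.21 (95% interval -0.02 to 0.44, limma adjusted p = 0.413), and the size of a difference this near to the dim range is uncertain.

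Among the beta subunits, Itgb1, the partner of most alpha chains here, read 14.50, 13.83, 13.95 and 13.42 in mgR611 to mgR614, against 13.87, 13.58, 14.27 and 14.13 in WT675, WT676, WT742 and WT744 (log2). Both genotypes spread across the same range, with the highest and the lowest array both mutant. The difference was -0.04 (95% interval -0.56 to 0.48, limma adjusted p = 0.972). Itgb5, a partner of alphav, ran from 10.58 to 11.04 in Fbn1mgR/mgR and from 10.59 to 11.17 in wild-type arrays, with a difference of -0.02 (95% interval -0.41 to 0.36, limma adjusted p = 0.974). Itgb3, the other alphav partner in this group and also the beta subunit of the platelet integrin, ran from 6.68 to 7.06 in Fbn1mgR/mgR and from 6.45 to 7.37 in wild-type arrays, with a difference of 0.11 (95% interval -0.35 to 0.57, limma adjusted p = 0.884). As fold changes, these 95% intervals ran from 0.680 to 1.40 for Itgb1, from 0.754 to 1.28 for Itgb5 and from 0.787 to 1.48 for Itgb3. The signs of Itgb1 and Itgb5 turned without mgR614 (0.13 and 0.07), WT742 (0.06 and 0.06) or WT744 (0.02 and 0.03), and that of Itgb3 turned to -0.01 without WT675.

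**Figure D2:**
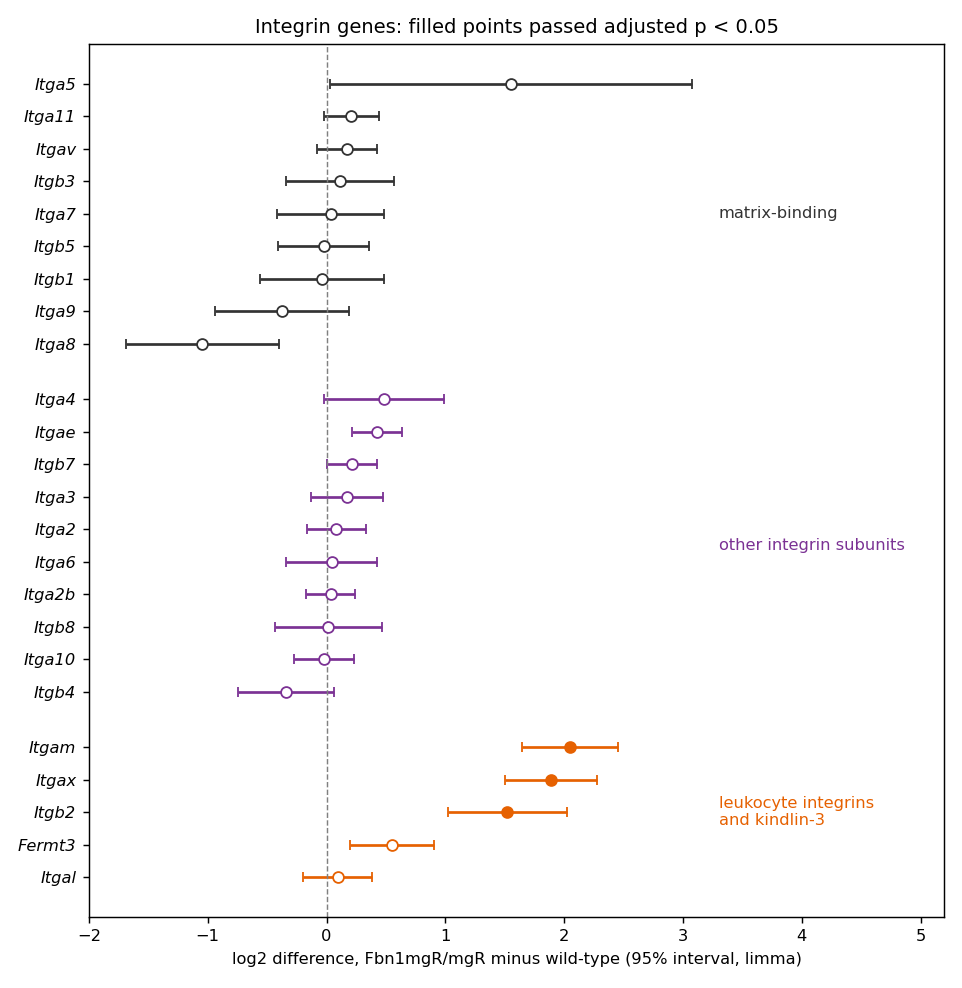
Log2 differences (x axis, Fbn1mgR/mgR minus wild-type) with 95% limma intervals for the 9 matrix-binding integrins (top), 10 other integrin subunits (middle) and 5 leukocyte integrin genes including kindlin-3 (bottom). Filled points, Itgam, Itgax and Itgb2, passed an adjusted p under 0.05; every matrix-binding integrin is open.

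Within each genotype, many of the integrins had their highest and lowest signals in the same arrays. The share of all tested clusters with these extremes was not counted, so this pattern is not shown to be particular to integrins. Among the mutant arrays, mgR611 was highest for 7 of the 9 genes and mgR614 was lowest for 6, Itga8, Itga9, Itgav, Itgb1, Itgb3 and Itgb5. Itgav lay only 0.04 below its genotype mean there (deviation -0.04). Among the wild-type arrays, WT742 was highest for 8 of the 9 and WT675 was lowest for 7. The median deviation from the genotype mean was 0.34 in mgR611 and -0.30 in mgR614, and it was 0.34 in WT742 and -0.31 in WT675 (log2). Contractile smooth muscle markers had the same arrays at their extremes, with means of 12.23 in mgR611 and 11.31 in mgR614 among mutants and of 12.62 in WT742 and 11.92 in WT675 among wild-type arrays. Mean signals of the RGD-type and alpha9 ligands, focal adhesion scaffold genes and other matrix receptors, described further on, had these extremes too. Those of the genes of integrin activation and the integrin-linked kinase complex had them in mgR611, mgR614 and WT742. In that list WT675 and WT744 were level as the lowest wild-type arrays, at 9.73. Means of the collagen, laminin, leukocyte integrin and further integrin lists did not have these extremes. The part of cell content in this pattern was not tested.

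**Figure D3:**
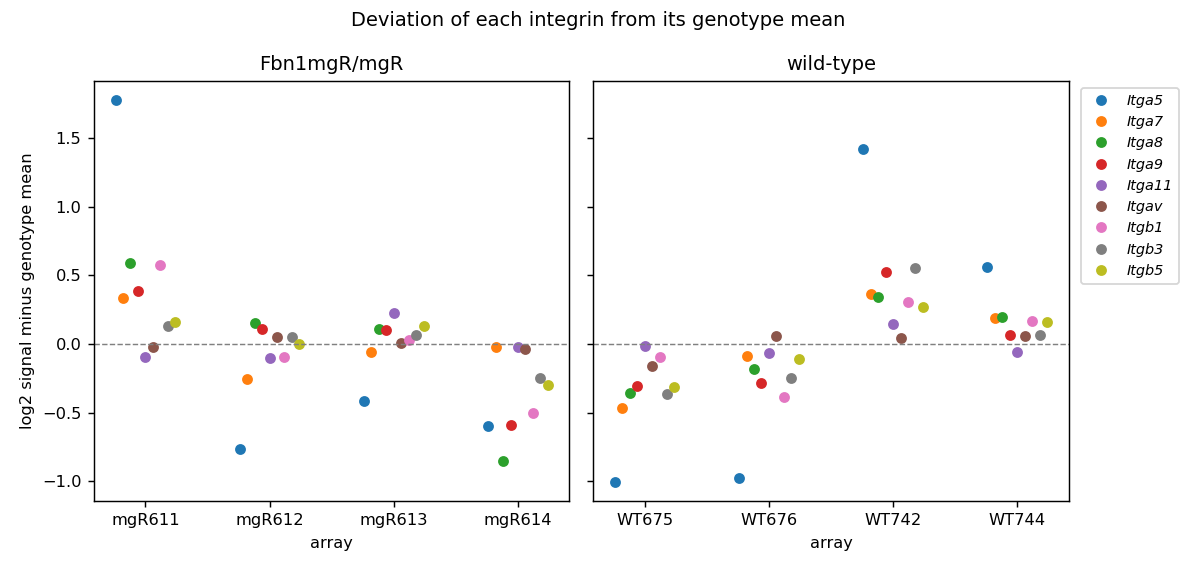
Log2 signal of each integrin minus the mean of its genotype (y axis), by array, for Fbn1mgR/mgR (left) and wild-type (right); each colour is a gene and the dashed line is the genotype mean. Most genes lie above 0 in mgR611 and WT742 and below 0 in mgR614 and WT675. Itga5 reaches furthest in mgR611, WT742 and WT675, and Itga8 in mgR614.

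The genes most like Itga8 and Itga5 across the 8 arrays were sought among 12944 tested clusters with a named gene, by the root mean square difference of values centred on their own mean. For Itga8, which itself varied by 0.671 about its mean, they were Adcy5, an adenylyl cyclase (0.131), Syde2 (0.143), and Lims2, the adhesion adaptor PINCH-2 (0.152). Lims2 belongs to the talin, kindlin and ILK group described further on. For Itga5, which varied by 1.29, they were Tnfrsf12a, the TWEAK receptor (0.401), Flnc, the actin crosslinker filamin C (0.439), and Lrrc32, which presents latent TGF-beta at the cell surface (0.496). All 3 were highest in mgR611 and lowest in WT675 and WT676, which follows from their choice by likeness to Itga5 in these arrays. Tnfrsf12a, for example, read 15.04, 12.97, 13.44 and 13.64 in mgR611 to mgR614, against 11.00, 10.88, 13.47 and 13.55 in WT675, WT676, WT742 and WT744 (log2). None of these 6 genes passed the genotype test, with limma adjusted p from 0.082 to 0.592.

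**Figure D4:**
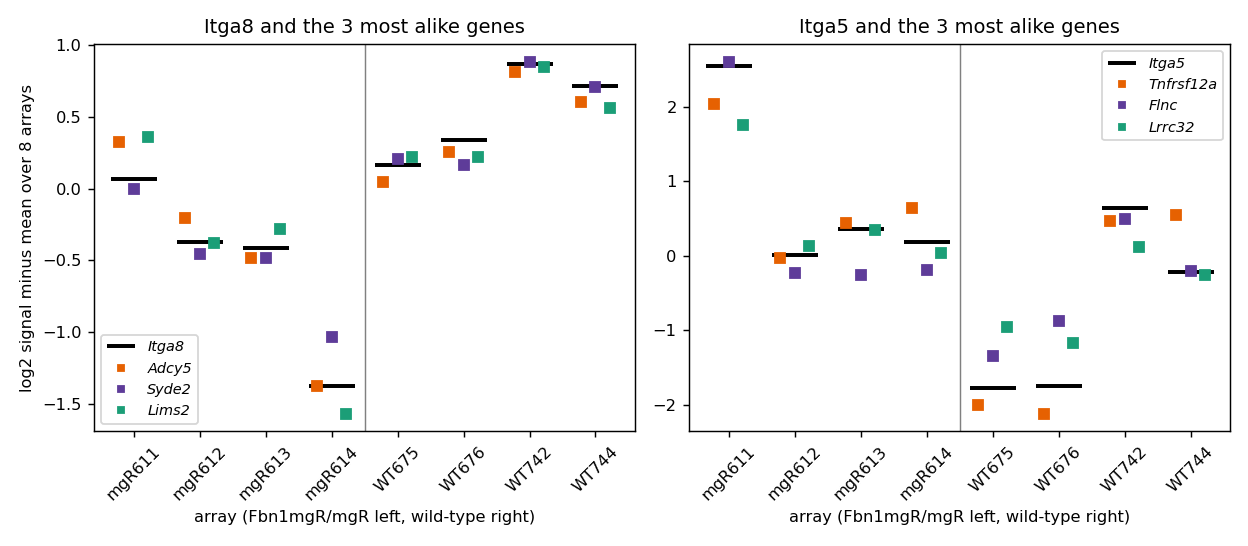
Log2 signal minus the mean over all 8 arrays (y axis) for Itga8 (left panel) and Itga5 (right panel), drawn as black bars, and for the 3 most alike genes of each, drawn as coloured squares; Fbn1mgR/mgR arrays stand left of the grey line. Itga8 and its companions are lowest in mgR614, and Itga5 and its companions are highest in mgR611. The companions were chosen by likeness over these same arrays.

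Several ligands of these receptors rose. Of 12 RGD-type and alpha9 ligands, 10 were tested. In Fbn1mgR/mgR 4 rose and 0 fell (limma), against 1.54% and 0.558% of all tested clusters. Before adjustment 6 were higher and 0 lower, against 14.2% in either direction, and the median difference was 0.74. Those that rose encode fibronectin, which binds the alpha5 and alphav receptors, tenascin-C and SVEP1, which bind the alpha9 receptor, and thrombospondin-1, which binds several integrins. Fn1, encoding fibronectin, read 16.03, 15.89, 15.76 and 15.35 in mgR611 to mgR614, against 13.05, 13.55, 14.38 and 14.12 in WT675, WT676, WT742 and WT744 (log2). All mutant arrays lay above all wild-type arrays. The difference was 1.98 (SE 0.275, limma adjusted p = 0.00701), or 3.95-fold. Tnc, with means of 9.22 ± 0.62 in Fbn1mgR/mgR and 6.55 ± 0.65 in wild-type (SD, n = 4 each), differed by 2.67 (limma adjusted p = 0.00713). Thbs1 ran from 13.14 to 14.66 in Fbn1mgR/mgR and from 10.98 to 11.61 in wild-type arrays and differed by 2.45 (limma adjusted p = 0.00522). Tenascin-C is scarce in healthy adult vessels, and thrombospondin-1 also activates latent TGF-beta. Svep1, encoding a large adhesion protein, read 9.57, 10.38, 10.26 and 10.55 in mgR611 to mgR614, against 7.80, 8.50, 8.75 and 8.61 in WT675, WT676, WT742 and WT744, a difference of 1.77 (SE 0.264, limma adjusted p = 0.00992).

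The other ligands tested did not pass. Values were 0.87 for periostin, Postn (limma adjusted p = 0.153), 0.61 for Mfge8, a bridge between alphav integrins and cell membranes (0.307), -0.35 for nephronectin, Npnt, the alpha8 ligand (0.612), and -0.17 for Tgfbi (0.834). Vtn, encoding vitronectin, and Edil3 were below the signal needed for a test. The 4 calls held with each array left out in turn (limma adjusted p from 0.0029 to 0.0353). They were lost with the striated muscle marker mean as a covariate (0.168 to 0.268), and that of Svep1 also with the contractile marker mean (0.053). The striated muscle mean was itself separated by genotype, at 5.43 to 5.82 in Fbn1mgR/mgR and 5.89 to 6.51 in wild-type arrays, through 1 gene, Tcap, which encodes a sarcomere protein. Tcap read 6.42, 8.29, 8.51 and 5.98 in mgR611 to mgR614, against 12.08, 11.84, 10.67 and 11.66 in WT675, WT676, WT742 and WT744 (log2). The mean of the other 9 markers overlapped, at 5.37 to 5.52 in Fbn1mgR/mgR and 5.25 to 5.89 in wild-type arrays. With that mean as a covariate the 4 calls held (limma adjusted p from 0.008 to 0.0139). That mean mainly set WT675 (5.89) apart from the other arrays (5.25 to 5.52), so calls that held with it, here and elsewhere, are a limited check.

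Among the collagens and laminins, Col1a1 alone passed. Of 11 collagen genes tested, 1 rose and 0 fell (limma; 4 higher and 0 lower before adjustment; median difference 0.15). Col1a1, a chain of fibrillar type I collagen, read 9.29, 9.32, 9.12 and 8.98 in mgR611 to mgR614, against 8.19, 8.01, 8.17 and 8.41 in WT675, WT676, WT742 and WT744 (log2). The groups were well apart, and the difference was 0.98 (SE 0.141, limma adjusted p = 0.00837), or 1.98-fold. It held with each array left out (adjusted p of at most 0.0321) but not with the striated muscle mean as a covariate (0.167, or 0.0194 with Tcap left out of that mean). Next in order were the basement membrane chain Col4a2 at 0.57 (limma adjusted p = 0.0988), Col1a2 at 0.36 (0.344), Col4a1 at 0.36 (0.350) and Col3a1 at 0.25 (0.484). Of 10 laminin and basement membrane genes, 0 passed as higher and 0 as lower (limma; 1 higher and 2 lower before adjustment; median difference 0.01). The laminin alpha chains Lama4 and Lama2 were at -0.58 (limma adjusted p = 0.165) and -0.52 (0.202), while the nidogens Nid1 and Nid2, which join laminin to type IV collagen, were at 0.71 (0.299) and 0.43 (0.691).

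**Figure D5:**
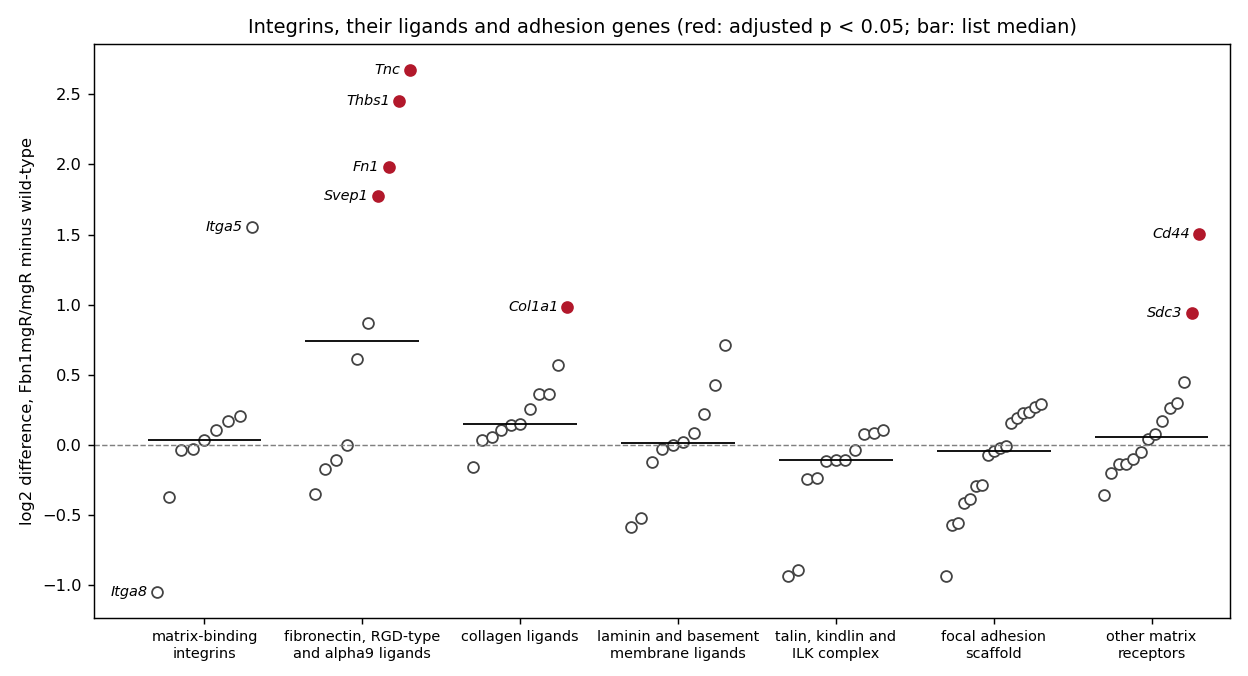
Log2 differences (y axis, Fbn1mgR/mgR minus wild-type) of the 9 integrins and of the tested genes of 6 lists of ligands, adaptors and other matrix receptors (x axis); red points passed an adjusted p under 0.05 and are named, black bars are list medians. Fn1, Tnc, Thbs1, Svep1, Col1a1, Sdc3 and Cd44 are the red points, all above 0, and Itga5 and Itga8 are named for orientation.

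On the inner face of the membrane no tested adhesion gene passed. Ptk2, encoding focal adhesion kinase, and Pdlim7 had no single-symbol cluster. Fermt1 and Itgb1bp2 were below the signal needed for a test. Of 11 tested genes of integrin activation and of the complex of integrin-linked kinase, PINCH and parvin, 0 passed as higher and 0 as lower (limma; 0 higher and 2 lower before adjustment), with a median difference of -0.10. The lowest were Lims2 at -0.93 (limma adjusted p = 0.268) and beta-parvin, Parvb, at -0.89 (0.248), then Ilk at -0.24 (0.738) and alpha-parvin, Parva, at -0.23 (0.663). Lims2 read 12.85, 12.11, 12.21 and 10.92 in mgR611 to mgR614, against 12.71, 12.71, 13.34 and 13.05 in WT675, WT676, WT742 and WT744 (log2). It was lowest in mgR614, as its likeness to Itga8 described above already implies, while mgR611 lay inside the wild-type range. Of 17 focal adhesion scaffold and signalling genes tested, 0 passed in either direction (limma), with a median difference of -0.04. Before adjustment 0 were higher and 2 lower, against 14.2% of all tested clusters in either direction. The tensin gene Tns2 was at -0.94 (limma adjusted p = 0.106), filamin A, Flna, at -0.56 (0.325), the paxillin relative Tgfb1i1 at -0.57 (0.399) and zyxin, Zyx, at -0.41 (0.440). Tns2 read 7.45 in mgR614 and 8.44 to 8.59 in the other mutant arrays, against 9.07 to 9.35 in wild-type arrays, and its difference was -0.67 without mgR614.

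Other receptors for matrix gave 2 rises among 14 genes and 0 falls (limma), with a median difference of 0.06. Before adjustment 2 were higher and 1 lower, against 14.2% of all tested clusters in either direction. Cd44, the hyaluronan receptor, read 8.27, 7.54, 7.39 and 7.89 in mgR611 to mgR614, against 6.05, 6.05, 6.53 and 6.45 in WT675, WT676, WT742 and WT744 (log2). It differed by 1.50 (SE 0.212, limma adjusted p = 0.00762), and the heparan sulphate proteoglycan Sdc3 differed by 0.94 (SE 0.109, limma adjusted p = 0.00348). Both held with each array left out (adjusted p of at most 0.0307), and both were lost with the striated muscle mean as a covariate (0.221 and 0.0831, or 0.0143 and 0.00905 with Tcap left out of that mean). Macrophage markers were higher in the same arrays, with 12 of 12 called and a median difference of 1.75, and their part in the Cd44 and Sdc3 values was not tested. Syndecan-4, Sdc4, which acts with the fibronectin receptor, was at 0.45 (limma adjusted p = 0.581). Sdc2, Cd47 and the laminin receptor Bcam were at 0.30, 0.26 and -0.35 (0.421, 0.594 and 0.320).

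Some genes of the leukocyte integrins rose. Of 5 tested genes of this kind, 3 rose and 0 fell (limma; 4 higher and 0 lower before adjustment), with a median difference of 1.52. Itgam, the alpha subunit of the complement receptor of myeloid cells, read 7.17, 7.71, 7.26 and 7.91 in mgR611 to mgR614, against 5.28, 5.41, 5.57 and 5.58 in WT675, WT676, WT742 and WT744 (log2). Its difference was 2.05 (limma adjusted p = 0.00103). Itgax rose by 1.89 (limma adjusted p = 0.00117) and their shared partner Itgb2 by 1.52 (limma adjusted p = 0.00894). Kindlin-3, Fermt3, and the lymphocyte subunit Itgal were at 0.55 (limma adjusted p = 0.132) and 0.09 (0.828). The 3 calls held with each array left out, Itgam was lost with the striated muscle mean as a covariate (0.0563), and Itgb2 was lost with that mean (0.254) and with the contractile mean (0.0518). With Tcap left out of the striated muscle mean both held (0.00222 and 0.0116). Macrophage markers moved with them: 12 of 12 rose (9 to 11 with 1 array left out), with means of 9.12 to 9.83 in Fbn1mgR/mgR and 7.33 to 7.68 in wild-type arrays. The difference between the leukocyte and the matrix-binding genes was not itself tested.

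Of 11 further integrin subunits, 10 were tested and 0 passed in either direction (limma; 2 higher and 0 lower before adjustment; median difference 0.06). Itgae, the lymphocyte partner of beta7, came nearest at 0.42 (limma adjusted p = 0.0548), with means of 4.50 in Fbn1mgR/mgR and 4.08 in wild-type, below the 4.11 that marks dim signals. It passed under 4 alternatives, with adjusted p from 0.0353 to 0.0437 for these. Itgb7 was at 0.21 (limma adjusted p = 0.334), Itga4, which binds fibronectin and VCAM-1, at 0.48 (0.376) and the epithelial subunit Itgb4 at -0.34 (0.450).

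Marker lists of other cells were read beside the integrins. Of 9 fibroblast markers, 0 passed (limma; 1 higher and 0 lower before adjustment), with means of 12.34 to 12.95 in Fbn1mgR/mgR and 12.58 to 12.74 in wild-type arrays. Endothelial markers averaged 9.21 to 9.92 in Fbn1mgR/mgR and 9.72 to 10.33 in wild-type arrays. Of 9 tested, 1 fell, the transcription factor Erg (-1.21, limma adjusted p = 0.0447). Before adjustment 0 were higher and 4 lower, with a median difference of -0.49. The limma adjusted p of Erg was 0.0545 to 0.123 with any array but mgR612 left out. Striated muscle markers had 1 fall among 10, Tcap (-4.26, limma adjusted p = 0.00635; 0.0101 to 0.0267 with 1 array left out), and 5 of its 14 measured genes were dim in both genotypes. Brown fat means ran from 7.61 to 11.26 in Fbn1mgR/mgR and from 6.71 to 11.45 in wild-type arrays, with mgR614 and WT676 highest, and 0 of 7 passed (limma; 0 before adjustment). Platelet markers were read because Itgb3 is also a platelet subunit. Of 5 tested, 1 rose, Pf4 (1.29, limma adjusted p = 0.0277). This call was lost without mgR611, mgR612, mgR613, mgR614, WT675 or WT676 (limma adjusted p from 0.051 to 0.081). The others did not follow Pf4, with Ppbp at 0.135, Gp9 at -0.17, Treml1 at -0.10 and Itga2b at 0.035 (limma adjusted p from 0.793 to 0.974). The platelet alpha subunit Itga2b read 4.34 to 4.64 in Fbn1mgR/mgR and 4.37 to 4.49 in wild-type arrays. Mesothelial markers averaged 10.38 to 11.68 in Fbn1mgR/mgR and 10.45 to 12.38 in wild-type arrays, and 0 of 6 passed (limma; 0 higher and 2 lower before adjustment). Adipocyte and Schwann cell lists had 4 and 2 genes tested and 0 past the threshold (limma; 0 before adjustment). The part of any of these cells in the integrin values was not tested.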

How the data were processed

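RNA of 8 ascending aorta samples was measured on Clariom D mouse arrays. The authors deposited log2 signals per transcript cluster, with near-equal array medians; the Transcriptome Analysis Console is named, without version, per the submitters' processing notes. The sources used here give no normalization method, probe summary or genome build. The number of arrays limits precision (median SE of a difference 0.151).

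Genotypes came from the sample titles. Symbols came from the platform annotation, of which 22818 gene IDs matched RefSeq (GRCm38.p6) and 827 symbols were updated. Differences, Fbn1mgR/mgR minus wild-type, were fitted to all clusters with lmFit and eBayes (with an intensity trend) of limma 3.58.1, run under R 4.3.3, with Benjamini-Hochberg adjustment over the 32957 clusters above the median mean signal of 4.01, and a threshold of 0.05. The fit was tested on simulated data. Tables and figures used Python 3.11.15, pandas 2.3.3 and matplotlib 3.10.9.

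Named genes were the 10 integrins, each list member past the threshold and up to 4 others with the smallest p, and the 3 genes most alike the 2 integrins with the smallest p; called markers were named afterwards. The integrins and lists were chosen with earlier results of these data known. Alternatives changed the variance model, array weights, filter, normalization, covariates and arrays included.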

Additional observations from a re-analysis of the deposited data

Results flagged for a closer look

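Of 104 groups of 4 arrays examined over the integrins and named genes, 5 held 1 array far from the other 3 by Dixon's criterion, where chance gives about 1 in 20. Itga5 read 15.29 in mgR611, against 12.75 to 13.10 in the other Fbn1mgR/mgR arrays. Itgav read 7.21 in WT675 and 7.41 to 7.43 in the other wild-type arrays. Tns2 read 7.45 in mgR614, and 8.44 to 8.59 in the other Fbn1mgR/mgR arrays. Col1a2 read 9.34 in WT744 and 9.08 to 9.11 in the other wild-type arrays. Sdc2 read 9.83 in WT675 and 9.77 to 9.78 in the other wild-type arrays, a gap of a few hundredths of a log2 unit.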

How the results depend on the processing

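No matrix-binding integrin was called in either direction under any of the 22 alternatives, nor did the counts of calls in the ligand, adaptor, receptor and leukocyte lists change with 1 array left out or with no filter. Over all clusters, 507 were higher and 184 lower. The lower count was 99 with no filter. With the striated muscle marker mean as a covariate the counts were 42 higher and 9 lower. That mean was separated by genotype only with Tcap in it, and without Tcap the counts were 385 and 132. With the contractile marker mean they were 241 and 64. The last 2 covariates were chosen after seeing the data. With 1 array left out they ran from 272 to 524 higher and from 66 to 146 lower. The higher count was 318, 321, 273, 283, 314 and 272 without mgR613, mgR614, WT675, WT676, WT742 and WT744, and the lower count was 115, 95, 104, 89, 121 and 66 without mgR611, mgR613, mgR614, WT675, WT676 and WT744. Signs of some values that did not pass the test turned. The striated muscle mean as a covariate gave -0.44 for Itga7, -0.14 for Itgb3, 0.023 for Itgb4, 0.28 for Tgfbi and -0.21 for Sdc4, array weights gave -0.007 for Itga7, and the striated muscle mean without Tcap gave -0.01 for Itga7. In the reported fit Itgb4 was at -0.34, Tgfbi at -0.17, Sdc4 at 0.45, Itga9 at -0.37, Npnt at -0.35 and Ilk at -0.24, and the rest lay within 0.11 of 0. The contractile mean gave 0.33 for Itgb1, 0.22 for Itgb5, 0.052 for Itga9, 0.006 for Npnt and 0.17 for Ilk, and Mfge8 passed under it (1.005, limma adjusted p = 0.0436). With 1 array left out, Itga7 ran from -0.12 to 0.16, Itgb1 from -0.23 to 0.13, Itgb3 from -0.013 to 0.29 and Itgb5 from -0.13 to 0.074. The causes were not tested. Each integrin had 1 cluster, so averaging clusters changed nothing, and Itga11 was not tested above the upper quartile. Leaving out the intensity trend, robust variance, quantile normalization, median centring and the brown fat covariate turned no integrin's sign. No paired analysis was possible because the genotypes share no replicate numbers.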
